A study of Mus musculus with 15 samples.

Results

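Ribosome biogenesis is the assembly of the ribosome's RNA and protein in the nucleolus, and 37 genes of this process were followed in the RNA of mouse bone marrow LSK cells, the fraction without lineage markers that carries Kit and Sca1 and holds the stem and early progenitor cells. The genes were chosen by name, and each was found by the symbol of its Ensembl ID among the 45232 genes of the count table. All 37 were among the 17834 genes that passed the filter on low counts, with at least 243 reads in every library. The study asked how LSK cells that carry Idh2-R140Q and Jak2-V617F differ from WT cells, and how an inhibitor of each mutant enzyme changes them. Marrow with both alleles, switched on in blood cells by Mx1-Cre after injections of polyI:polyC, had been mixed with CD45.1 WT marrow and transplanted into irradiated CD45.1 hosts, and donor cells were sorted as CD45.2+. Recipients received vehicle, AG221 (an inhibitor of mutant IDH2, 40 mg per kg by the labels, although the methods also name a higher dose), ruxolitinib (a JAK1 and JAK2 inhibitor, 60 mg per kg) or both, by gavage BID for 21 to 28 days, with the last dose 1.5 hours before sacrifice. The WT group was CD45.2+ LSK cells of the same strain (C57BL/6 by the labels, C57BL/6J by the methods), and whether they came from transplant recipients is not stated. Each of the 5 groups held 3 libraries. The methods give mice of both sexes, all adults, for the whole study and not for single libraries. A figure legend of the study gives 3 a group and calls the clustered samples mice, but no statement says that each library came from 1 mouse without pooling. The p-values here measure the spread between libraries within groups, pooled over the 5 groups, and not that of the compared groups alone.

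RNA polymerase I copies the ribosomal DNA into a long precursor RNA. Small nucleolar ribonucleoproteins (snoRNPs) modify that precursor, and the processome of the small subunit and the assembly factors of the large subunit fold and cut it while ribosomal proteins join. Dividing progenitors make many ribosomes, and MYC is a well known activator of these genes. The members were ordered by these steps: 6 act in polymerase I transcription, 3 are abundant nucleolar proteins, 3 belong to the box C/D and 5 to the box H/ACA snoRNPs, 10 to the small subunit and 10 to the large subunit. They lie on 19 chromosomes, and the median GC content of their transcripts was 51.1%, against 48.97% over 17751 tested genes with a gene model.

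The E-box CACGTG, a palindrome that reads the same on both strands and is bound by MYC with its partner MAX, was searched for in RefSeq promoters (GRCm38.p6, 250 bases before to 50 after each start). Of the 37 members, 32 had an entry, and Rrp12, Tcof1, Bop1, Npm1 and Fbl had none. At least 1 E-box stood in 7 of the 32 genes (21.9%), which were Imp4, Nop2, Utp20, Pes1, Mybbp1a, Rrn3 and Wdr43. An E-box stood in 18.75% of 96 other genes of the pathway with an entry (listed below) and in 11.02% of the 11808 tested genes with an entry. Counted by promoter, 7 of 41 windows of the members held it (17.1%), against 1395 of 15015 windows of tested genes (9.29%) and 7.15% of all 32851 windows. These shares describe the letters and not binding. Of the 26 genes with an entry that rose in vehicle against WT (described below), 7 held an E-box and 19 did not. It stood in 0 of the 5 genes that were not called and in 0 of the 1 that fell. Examples chosen after their values were seen are shown. Utp20, Nop2, Pes1 and Mybbp1a are 4 of the 7 genes that hold an E-box, in capitals. Nhp2 stands for the genes that rose and hold none, and Noc2l is the single member that fell and holds none in this window.
Utp20, chr10:88826765-88827064, - strand: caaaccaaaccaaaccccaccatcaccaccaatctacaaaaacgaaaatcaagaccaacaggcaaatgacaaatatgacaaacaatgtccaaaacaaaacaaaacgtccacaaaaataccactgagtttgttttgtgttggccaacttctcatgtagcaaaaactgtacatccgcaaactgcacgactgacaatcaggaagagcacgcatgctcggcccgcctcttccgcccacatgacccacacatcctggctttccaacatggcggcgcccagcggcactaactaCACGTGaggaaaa
Nop2, chr6:125131633-125131932, + strand: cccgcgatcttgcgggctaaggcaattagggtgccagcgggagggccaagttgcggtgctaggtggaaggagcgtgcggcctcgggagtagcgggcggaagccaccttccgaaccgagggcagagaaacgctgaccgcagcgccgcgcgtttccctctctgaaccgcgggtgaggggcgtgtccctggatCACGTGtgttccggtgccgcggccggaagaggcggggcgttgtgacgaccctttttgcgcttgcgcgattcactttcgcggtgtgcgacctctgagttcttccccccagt
Pes1, chr11:3963725-3964024, + strand: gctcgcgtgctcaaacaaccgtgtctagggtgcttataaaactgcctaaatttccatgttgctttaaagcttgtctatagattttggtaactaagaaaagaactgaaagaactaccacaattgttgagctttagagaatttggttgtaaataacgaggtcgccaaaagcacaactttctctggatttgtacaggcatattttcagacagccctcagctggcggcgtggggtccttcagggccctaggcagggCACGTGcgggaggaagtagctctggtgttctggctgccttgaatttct
Mybbp1a, chr11:72441077-72441376, + strand: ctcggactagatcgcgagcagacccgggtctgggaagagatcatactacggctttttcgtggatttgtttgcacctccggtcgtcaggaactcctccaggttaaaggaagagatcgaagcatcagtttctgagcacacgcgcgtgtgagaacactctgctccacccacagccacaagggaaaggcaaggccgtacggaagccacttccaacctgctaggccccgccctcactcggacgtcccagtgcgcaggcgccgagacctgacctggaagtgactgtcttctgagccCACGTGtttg
Nhp2, chr11:51619523-51619822, + strand: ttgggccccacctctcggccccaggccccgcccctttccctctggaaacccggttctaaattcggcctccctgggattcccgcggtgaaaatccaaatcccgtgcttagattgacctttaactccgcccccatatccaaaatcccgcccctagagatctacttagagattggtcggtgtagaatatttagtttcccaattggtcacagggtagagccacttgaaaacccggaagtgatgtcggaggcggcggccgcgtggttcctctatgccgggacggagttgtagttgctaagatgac
Noc2l, chr4:156235760-156236059, + strand: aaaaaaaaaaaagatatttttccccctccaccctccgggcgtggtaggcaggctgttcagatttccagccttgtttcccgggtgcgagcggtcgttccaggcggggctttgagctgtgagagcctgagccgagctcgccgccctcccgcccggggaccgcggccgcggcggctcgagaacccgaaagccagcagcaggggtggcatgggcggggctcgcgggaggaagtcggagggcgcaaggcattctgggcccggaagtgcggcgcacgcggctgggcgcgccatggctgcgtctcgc
From the first base of the transcript, the E-box began at base 38 in Utp20, 3 in Pes1 and 41 in Mybbp1a, and at base -60 in Nop2, before the start.

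Libraries held 18836625 to 32174287 counts, with a median of 25545779. A count of 0 allowed a level of up to 0.0957 to 0.157 CPM (3 counts on the same scale; CPM are a gene's counts relative to the library's counts in tested genes times its TMM factor, which ran from 0.916 to 1.17), and every member lay far above it. Such limits cover counting error only. Mitochondrial genes made up 1.46, 1.23 and 1.46% of counts in AG221 A8, A9 and A10 and 0.846 to 1.12% in the other 12 libraries. The 100 most abundant genes made up 18.3, 16.02 and 17.7% of counts in AG221 and 12.8 to 15.4% in the other 12. WT libraries differed from the rest in more than genotype. Genes with at least 1 count numbered 29782 to 34487 in WT and 21369 to 26329 in the other 12 libraries. Xist, the RNA of the inactive X chromosome, was at 511, 455 and 477 CPM in WT and at most 19.5 CPM elsewhere, and the Y-linked Ddx3y was at 124 to 206 CPM in the 12 libraries from recipients and at most 0.101 CPM in WT. Sex and genotype therefore cannot be told apart in comparisons with WT. Replicate names carry the letter A in vehicle, AG221 and ruxolitinib and B in WT and combined treatment. What the letter stands for is not stated. It cannot be told apart from the group in vehicle, AG221 or ruxolitinib against WT, or in combined treatment against vehicle, AG221 or ruxolitinib. The same holds for the change with both drugs less the sum of the changes with each drug alone.

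Kit and Ly6a (Sca1), which define the sort, were present in every library. Kit was at 1552, 1279 and 1251 CPM in WT, 1130.1, 1369.7 and 859 CPM in vehicle, 984, 739.8 and 992 CPM with AG221, 1120.1, 1402 and 1306 CPM with ruxolitinib and 1025, 901 and 940.4 CPM with combined treatment. Ly6a ranged from 13.1 CPM in vehicle A4 to 166 CPM in vehicle A1. Replicates of AG221 and of ruxolitinib were unevenly spaced. Over all genes, the chi-square per degree of freedom between 2 libraries was 25.7 for AG221 A8 and A10 but 174 and 134 for A9 with either of them, and 15.05 for ruxolitinib A14 and A17 but 126 and 101 for A16 with either. The values of the pairs of vehicle, WT and combined treatment lay between 22.3 and 79.05. These values describe distances and test nothing, and they set A9 apart as much as A8 and A10. Counts below are therefore also given without AG221 A8, AG221 A10 and ruxolitinib A16 together, a choice made after seeing the data, where this moves them by over 1.5 times, and without AG221 A9 alone where that does.

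**Figure D1:**
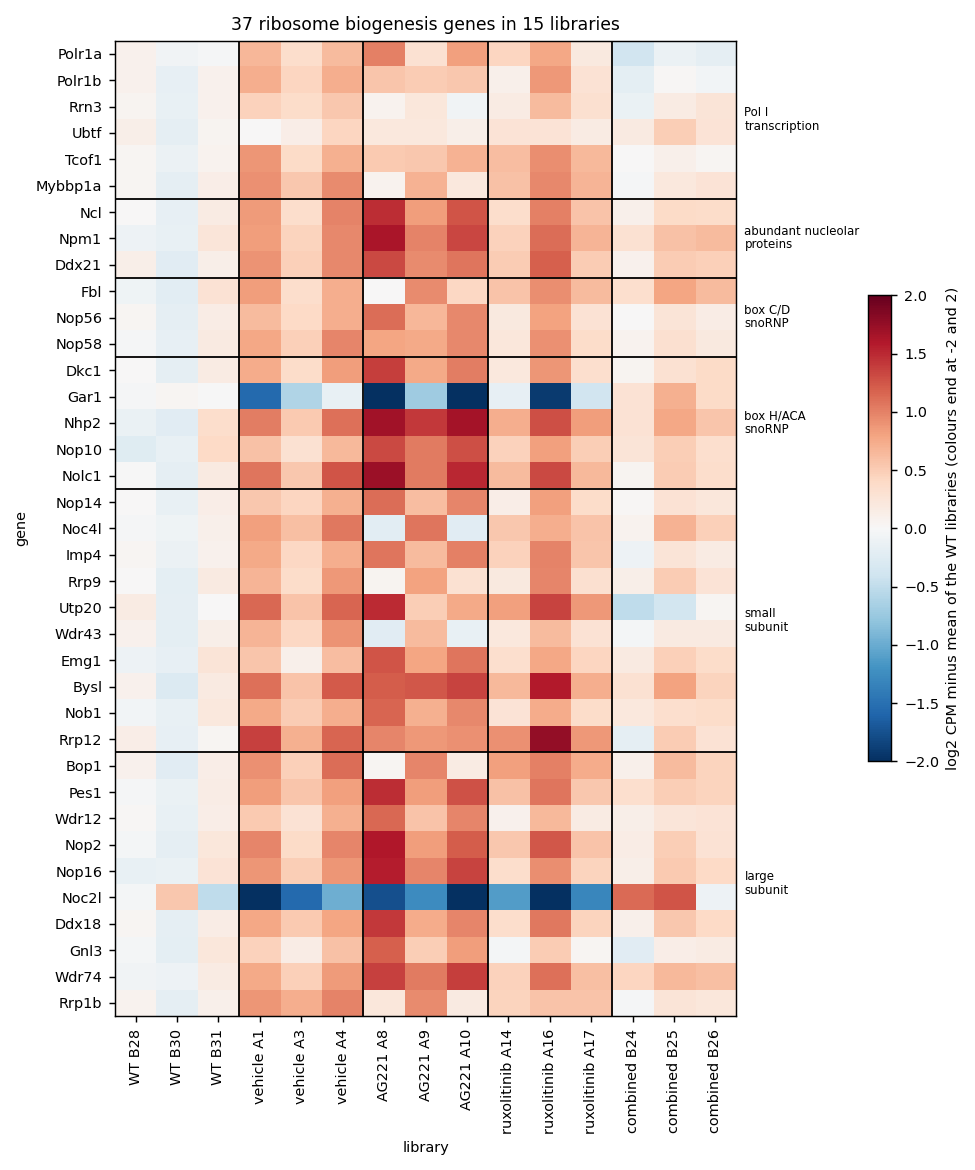
Log2 CPM of the 37 members (rows, by role) in the 15 libraries (columns), less the mean of the 3 WT libraries, with colours ending at -2 and 2. Most rows are red in vehicle, AG221 and ruxolitinib and paler with combined treatment, while Gar1 and Noc2l are blue in the 9 libraries of those 3 groups.

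In vehicle-treated recipients most members were more abundant than in WT. Of 37 members, 31 rose and 1 (Noc2l) fell in vehicle against WT by edgeR's quasi-likelihood test at an adjusted p under 0.05, where 15.4% of all tested genes rose and 17.9% fell. The median log2 fold change of the members was 0.68 and that of all tested genes -0.091. The libraries of the 2 groups did not overlap for 31 members that were higher and 2 that were lower in vehicle, against 25.6% and 31.3% of tested genes. The count rested on single libraries. It was 4 without WT B30, 17 without vehicle A1, 17 without vehicle A4 and 19 without WT B28, where 10.5%, 18.3%, 19.4% and 22.9% of all tested genes were called in the same fits. Without WT B30 the share of the members, 4 of 37, was thus close to that of all genes. WT B30 had the highest sum of B and plasma cell genes (listed below) of all libraries, 11120.5 CPM against 5399 and 3588 CPM in B28 and B31. It also had the most genes detected and the lowest median level of the members. The part of these traits in the counts against WT was not tested. The median change stayed between 0.608 and 0.811 over the 6 fits that left out 1 library. With upper quartile normalization 17 members and 27.4% of tested genes were called. The members whose calls held in all 6 were Tcof1, Mybbp1a, Rrp12 and Rrp1b.

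Relative to the WT mean, the median log2 level of the members was 0.77, 0.43 and 0.83 in vehicle A1, A3 and A4, 1.12, 0.76 and 0.97 in AG221 A8, A9 and A10, and 0.43, 0.93 and 0.49 in ruxolitinib A14, A16 and A17. With combined treatment it was 0.10, 0.49 and 0.29 in B24, B25 and B26, and in the WT libraries themselves 0.013, -0.16 and 0.14. The medians of the 9 libraries from recipients on vehicle or a single drug thus lay above all WT medians, and those of B25 and B26 did too, whereas B24 lay within the WT range. Medians by role were also computed, and differences between roles were not tested. In AG221 the polymerase I genes had medians of 0.37, 0.40 and 0.37 and the box H/ACA genes of 1.38, 1.04 and 1.28, both relative to WT, against 0.70, 0.38 and 0.67 and 0.74, 0.37 and 0.83 in vehicle. With combined treatment the polymerase I medians were -0.072, 0.13 and 0.15 and those of the box H/ACA genes 0.25, 0.50 and 0.38. Relative to the scaling used here, upper quartile scaling moved the median of all tested genes by -0.29 in combined treatment against AG221 and offsets for GC content moved it by 0.29 in AG221 against WT. The members made up 0.741 to 0.886% of the tested counts in WT, 0.898 to 1.18% in vehicle, 1.15 to 1.38% with AG221, 0.883 to 1.27% with ruxolitinib and 0.773 to 0.910% with combined treatment. Fewer cells with a high level and less RNA per cell cannot be told apart in bulk samples.

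**Figure D2:**
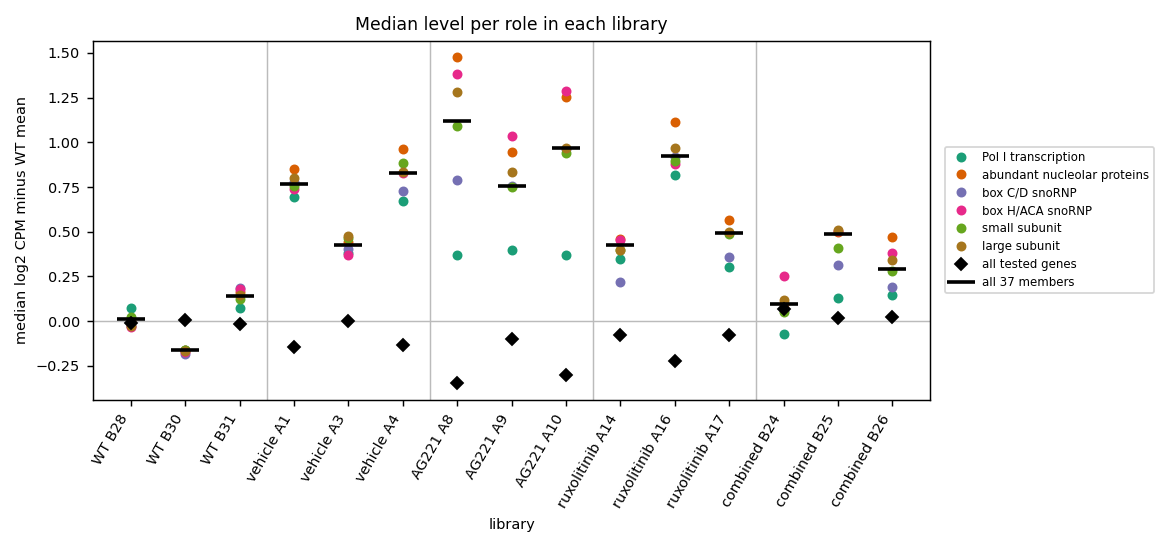
Median log2 CPM less the WT mean (vertical axis) for the members of each role (circles), all 37 members (black bars) and all tested genes (diamonds) in each library (horizontal axis). The bars lie at 0.43 to 0.83 in vehicle and at 0.10 to 0.49 with combined treatment.

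Among the polymerase I genes, Mybbp1a, a nucleolar protein that binds MYB and the polymerase I machinery, had the highest level per length, followed by Tcof1, the treacle protein that recruits the polymerase to ribosomal DNA. Mybbp1a was at 467, 399.7 and 495 CPM in WT, 855, 654 and 875 CPM in vehicle, 476, 733 and 522 CPM with AG221, 679, 883 and 727 CPM with ruxolitinib and 446, 525 and 544 CPM with combined treatment. All vehicle and ruxolitinib libraries lay above all WT libraries, and AG221 A8 lay within the WT range. The log2 fold change was 0.81 ± 0.18 (SE; edgeR adjusted p = 0.00761) in vehicle against WT and -0.65 ± 0.18 (SE; edgeR adjusted p = 0.0289) in combined treatment against vehicle, a call lost without vehicle A1, vehicle A4, combined B24 or combined B25 (adjusted p up to 0.133). Tcof1 was at 209, 188 and 212 CPM in WT, 374, 265 and 333 CPM in vehicle, 292, 293 and 329 CPM with AG221, 311, 385 and 317 CPM with ruxolitinib and 203, 216 and 208 CPM with combined treatment. Combined treatment and WT overlapped, and the 9 other libraries lay above both. Tcof1 rose by 0.68 ± 0.14 (SE; edgeR adjusted p = 0.00526) on the log2 scale in vehicle against WT, and its change in combined treatment against vehicle was -0.63 ± 0.14 (SE; edgeR adjusted p = 0.00868), a call lost without vehicle A1 (adjusted p up to 0.0556).

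Polr1a and Polr1b encode the largest and second largest subunits of the polymerase. Polr1a was at 114, 101 and 105 CPM in WT, 168, 136 and 165 CPM in vehicle, 214, 131 and 187 CPM with AG221, 143, 181 and 122 CPM with ruxolitinib and 81.8, 97.9 and 93.8 CPM with combined treatment, and the 3 combined libraries were below every WT library. Its log2 fold change was -0.78 ± 0.18 (SE; edgeR adjusted p = 0.0146) in combined treatment against vehicle, a call lost without vehicle A1 or combined B24 (adjusted p up to 0.0764). In vehicle against WT it was 0.55 ± 0.18 (SE; edgeR adjusted p = 0.0355), a call lost without vehicle A1, vehicle A4, WT B28, WT B30 or WT B31 (adjusted p up to 0.118). Polr1b was at 154, 129 and 154 CPM in WT, 242, 196 and 240.0 CPM in vehicle, 214, 206 and 210.1 CPM with AG221, 156, 264 and 177 CPM with ruxolitinib and 127, 147 and 139.6 CPM with combined treatment. The AG221 libraries of Polr1b lay close together, unlike those of Polr1a. Polr1b changed by 0.63 ± 0.17 (SE; edgeR adjusted p = 0.0168) in vehicle against WT, a call lost without vehicle A1 or WT B30 (adjusted p up to 0.0798). It changed by -0.71 ± 0.17 (SE; edgeR adjusted p = 0.0165) in combined treatment against vehicle, a call lost without vehicle A1, vehicle A4 or combined B24 (adjusted p up to 0.0810). Of the remaining 2, Rrn3, the initiation factor TIF-IA, rose by 0.45 ± 0.15 (SE; edgeR adjusted p = 0.0335) in vehicle against WT, a call lost without vehicle A1, vehicle A4, WT B28 or WT B30 (adjusted p up to 0.136). Ubtf, the upstream binding factor, was at 0.19 ± 0.13 there and was called in none of the 10 comparisons. In combined treatment against vehicle Ubtf was at 0.12 ± 0.13, the single positive value of the 6 genes.

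The 3 abundant nucleolar proteins were called higher by edgeR in vehicle, AG221 and ruxolitinib against WT, where 15.4%, 22.2% and 16.1% of tested genes were, and in every fit that left out 1 library only in AG221. Npm1 (nucleophosmin), a chaperone of ribosomal proteins and histones, was at 593, 572 and 755 CPM in WT, 1138, 863 and 1239.8 CPM in vehicle, 1965, 1268 and 1598 CPM with AG221, 872, 1376 and 1018 CPM with ruxolitinib and 783, 952 and 988 CPM with combined treatment. The AG221 libraries were the highest of Npm1 except A9, which was below ruxolitinib A16, and the combined libraries lay above every WT library. Npm1 has processed pseudogenes that could share its reads, so its level is uncertain. Its log2 fold change was 0.76 ± 0.21 (SE; edgeR adjusted p = 0.0171) in vehicle against WT, a call lost without vehicle A4, WT B28 or WT B30 (adjusted p up to 0.0765). It was 1.33 ± 0.21 (SE; edgeR adjusted p = 0.000482) in AG221 against WT, a call that held in 6 of 6 fits that left out 1 library, and -0.83 ± 0.21 (SE; edgeR adjusted p = 0.0101) in combined treatment against AG221, a call lost without combined B24 (adjusted p up to 0.0517). Ncl (nucleolin), which binds precursor ribosomal RNA, was at 1254, 1118 and 1400.1 CPM in WT, 2259, 1597 and 2491 CPM in vehicle, 3484, 2235 and 2985 CPM with AG221, 1598, 2529 and 1854 CPM with ruxolitinib and 1340.5, 1638 and 1616 CPM with combined treatment. All vehicle and AG221 libraries exceeded every WT library, and AG221 A8 was the highest of the 15. Ncl changed by 0.75 ± 0.21 (SE; edgeR adjusted p = 0.0185) in vehicle against WT, a call lost without vehicle A1, vehicle A4 or WT B30 (adjusted p up to 0.0806). Ddx21, a nucleolar RNA helicase, changed by 0.79 ± 0.21 (SE; edgeR adjusted p = 0.0140) in vehicle against WT, a call lost without WT B30 (adjusted p up to 0.0708). In AG221 against WT the change of Ddx21 was 1.11 ± 0.21 (SE; edgeR adjusted p = 0.00122), a call that held in 6 of 6 fits that left out 1 library. In ruxolitinib against WT the change was 0.77 ± 0.21 (SE; edgeR adjusted p = 0.0165) for Npm1, a call lost without ruxolitinib A16, WT B28 or WT B30 (adjusted p up to 0.0734). For Ncl it was 0.67 ± 0.21 (SE; edgeR adjusted p = 0.0300), a call lost without ruxolitinib A16, WT B28 or WT B30 (adjusted p up to 0.114). For Ddx21 it was 0.76 ± 0.21 (SE; edgeR adjusted p = 0.0162), a call lost without ruxolitinib A16 or WT B30 (adjusted p up to 0.0775). Npm1, Ncl and Ddx21 were not called in combined treatment against vehicle.

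Box C/D snoRNPs guide methylation of ribosomal RNA, with fibrillarin (Fbl) as the methyltransferase and Nop56 and Nop58 as scaffold proteins. Nop56 was at 376, 322 and 404 CPM in WT, 565, 484 and 603 CPM in vehicle, 793, 578 and 716 CPM with AG221, 419, 637 and 448 CPM with ruxolitinib and 368, 435 and 406 CPM with combined treatment. Nop58 was at 311, 283 and 359.8 CPM in WT, 542, 439 and 619 CPM in vehicle, 547, 534 and 616 CPM with AG221, 369, 598 and 406 CPM with ruxolitinib and 331, 394 and 362 CPM with combined treatment. For both, every vehicle library lay above every WT library and combined treatment overlapped WT. In vehicle against WT, Nop56 changed by 0.58 ± 0.17 (SE; edgeR adjusted p = 0.0224), a call lost without vehicle A1, vehicle A4 or WT B30 (adjusted p up to 0.0995). Nop58 changed by 0.75 ± 0.18 (SE; edgeR adjusted p = 0.0109), a call lost without WT B30 (adjusted p up to 0.0559). Fbl, which has the paralog Fbll1, rose by 0.64 ± 0.23 (SE; edgeR adjusted p = 0.0445) in vehicle against WT, a call lost without vehicle A1, vehicle A4, WT B28 or WT B30 (adjusted p up to 0.163). It was called in ruxolitinib against WT as well and in no other comparison, with AG221 A8 at 104 CPM and A9 at 199.7 CPM. The spans of 6 members (Ncl, Nop56, Nop58, Dkc1, Wdr43 and Gnl3) hold 19 annotated snoRNA genes, none of which exceeded 3.93 CPM in these libraries.

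Box H/ACA snoRNPs convert uridine to pseudouridine, with dyskerin (Dkc1) as the enzyme and Nop10, Nhp2 and Gar1 as its core partners. Nop10 had the highest level per length of the 5 genes and was at 138, 148 and 217 CPM in WT, 247, 202 and 257 CPM in vehicle, 409.5, 339 and 400.2 CPM with AG221, 225, 289.7 and 231 CPM with ruxolitinib and 196, 231 and 208 CPM with combined treatment. Nhp2 was at 89.3, 83.3 and 124 CPM in WT, 198, 140.4 and 208 CPM in vehicle, 313, 259.5 and 307 CPM with AG221, 162, 237 and 173 CPM with ruxolitinib and 119, 166 and 144 CPM with combined treatment. In both genes the 3 AG221 libraries were the highest of all 15. The log2 fold change of Nhp2 was 0.88 ± 0.21 (SE; edgeR adjusted p = 0.00992) in vehicle against WT, a call lost without WT B30 (adjusted p up to 0.0529). In AG221 against WT it was 1.57 ± 0.21 (SE; edgeR adjusted p = 0.000230), a call that held in 6 of 6 fits that left out 1 library, and that of Nop10 was 1.19 ± 0.18 (SE; edgeR adjusted p = 0.000366), a call that held in 6 of 6 fits that left out 1 library. In AG221 against vehicle the changes of Nhp2, 0.69 ± 0.21 (SE; edgeR adjusted p = 0.0839), and Nop10, 0.70 ± 0.18 (SE; edgeR adjusted p = 0.0611), did not pass the threshold. Nolc1, a chaperone of snoRNPs, rose by 0.98 ± 0.24 (SE; edgeR adjusted p = 0.0110) in vehicle against WT, a call lost without WT B30 (adjusted p up to 0.0557). Dkc1 rose by 0.65 ± 0.20 (SE; edgeR adjusted p = 0.0274) there, a call lost without vehicle A1, vehicle A4, WT B28 or WT B30 (adjusted p up to 0.111).

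Against WT, Gar1 ran opposite to its partners in vehicle, AG221 and ruxolitinib. With combined treatment all 5 box H/ACA genes had a positive change against WT, none of them called. Gar1 was chosen for description after its values were seen. It was at 93.0, 97.4 and 94.8 CPM in WT, 32.4, 62.5 and 85.8 CPM in vehicle, 10.4, 57.9 and 11.8 CPM with AG221, 85.2, 25.2 and 72.7 CPM with ruxolitinib and 116, 155 and 124 CPM with combined treatment. Every library of vehicle, AG221 and ruxolitinib lay below every WT library, and every combined library above. AG221 A8 and A10 and ruxolitinib A16 were the 3 lowest. Gar1 changed in AG221 against WT by -1.83 ± 0.60 (SE; edgeR adjusted p = 0.0217) and was higher in combined treatment against AG221 by 2.31 ± 0.61 (SE; edgeR adjusted p = 0.0124), and both calls were lost without AG221 A8 or AG221 A10 (edgeR adjusted p up to 0.0760 and 0.0522). Its value in vehicle against WT, -0.66 ± 0.58 (SE; edgeR adjusted p = 0.390), was not called.

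**Figure D3:**
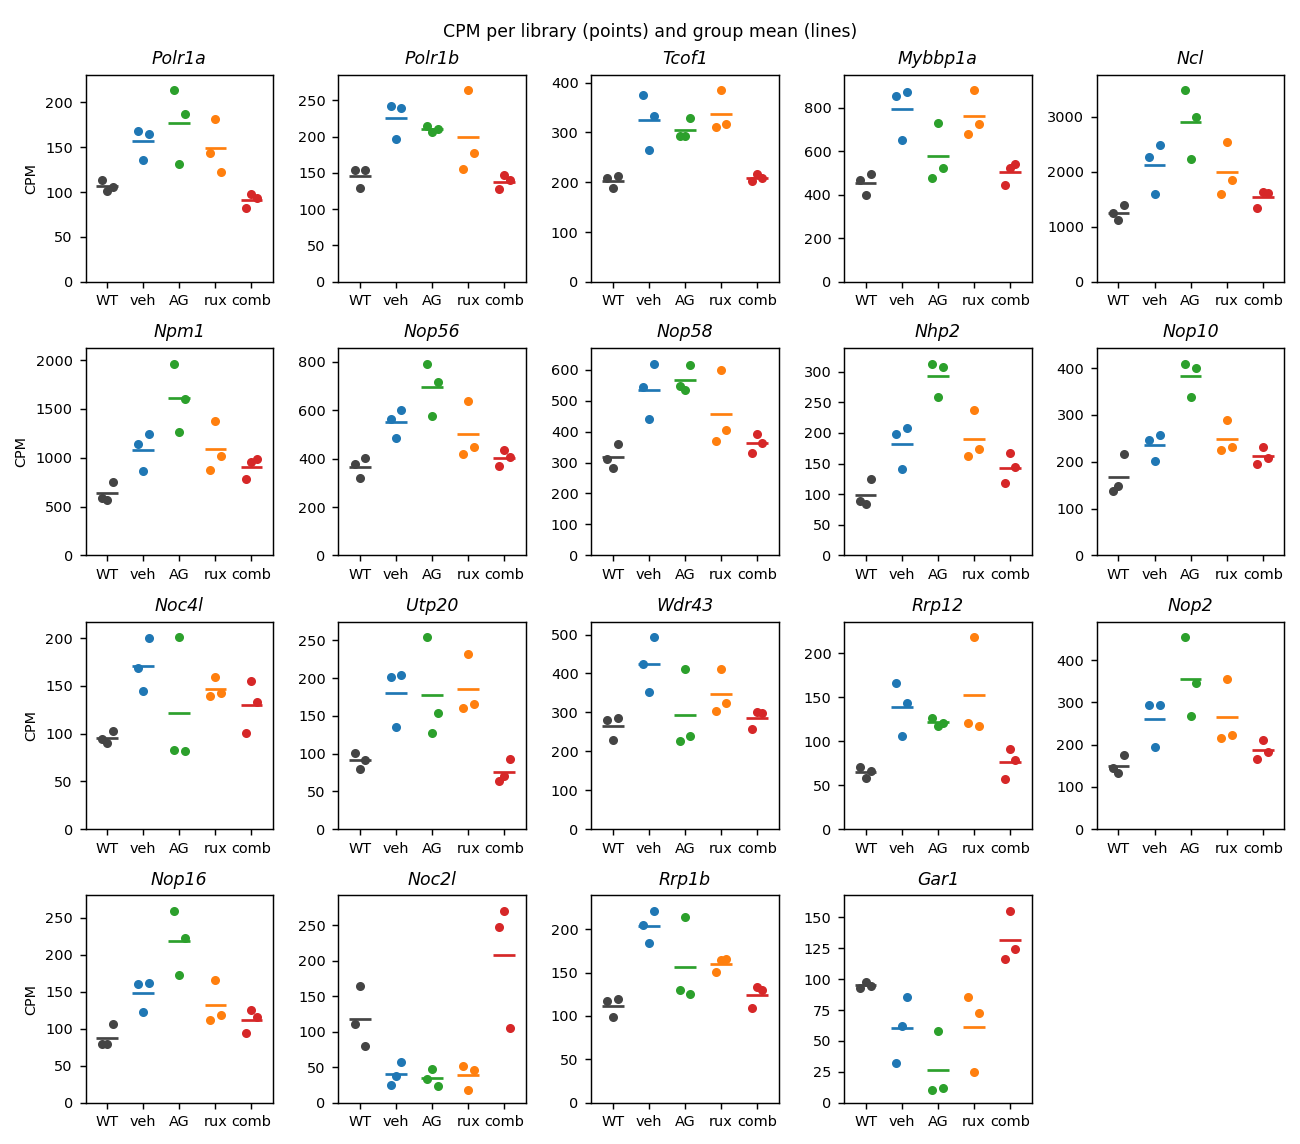
CPM (vertical axes, from 0) of 18 members chosen by level, p-value or fold change, and of Gar1, in each library (points, 3 a group) with the group mean (lines), for WT, vehicle (veh), AG221 (AG), ruxolitinib (rux) and combined treatment (comb). Noc2l and Gar1 are lower in vehicle than in WT and highest with combined treatment, whereas Utp20 and Tcof1 are higher in vehicle and near WT with combined treatment.

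In the small subunit, Wdr43 and Noc4l had the highest levels per length. Wdr43, a subunit of the processome that binds precursor RNA, was at 281, 230.1 and 285 CPM in WT, 425, 354 and 493 CPM in vehicle, 226, 411 and 238 CPM with AG221, 305, 411 and 323 CPM with ruxolitinib and 256, 299.8 and 298 CPM with combined treatment. Noc4l, a partner of Nop14, was at 94.4, 90.6 and 103 CPM in WT, 169, 145 and 199.8 CPM in vehicle, 83.2, 201 and 81.8 CPM with AG221, 139, 159 and 142 CPM with ruxolitinib and 101, 156 and 133 CPM with combined treatment. In both genes AG221 A9 was far above A8 and A10, which lay no higher than WT B28, and in Noc4l below every WT library. Wdr43 changed by 0.68 ± 0.22 (SE; edgeR adjusted p = 0.0301) in vehicle against WT, a call lost without vehicle A1, vehicle A4, WT B28 or WT B30 (adjusted p up to 0.121). Noc4l changed by 0.84 ± 0.29 (SE; edgeR adjusted p = 0.0401), a call lost without vehicle A1, vehicle A4, WT B28, WT B30 or WT B31 (adjusted p up to 0.125).

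Utp20 and Rrp12, large repeat proteins of the small subunit's precursor, were higher in all 9 libraries of vehicle, AG221 and ruxolitinib. Utp20 was at 101, 80.1 and 91.6 CPM in WT, 201, 135 and 204 CPM in vehicle, 254, 127 and 153 CPM with AG221, 161, 232 and 166 CPM with ruxolitinib and 63.5, 70.2 and 93.4 CPM with combined treatment. Rrp12 was at 70.2, 57.6 and 65.95 CPM in WT, 166, 106 and 144 CPM in vehicle, 126, 117 and 121 CPM with AG221, 121, 218 and 117 CPM with ruxolitinib and 57.03, 91.5 and 78.6 CPM with combined treatment. These 9 libraries were above all WT and all combined libraries for both genes, and combined treatment overlapped WT. Utp20 changed by 0.98 ± 0.26 (SE; edgeR adjusted p = 0.0142) in vehicle against WT, a call lost without WT B30 (adjusted p up to 0.0679). Combined treatment changed it relative to vehicle by -1.25 ± 0.26 (SE; edgeR adjusted p = 0.00748), a call that held in 6 of 6 fits that left out 1 library. Rrp12 changed by 1.10 ± 0.25 (SE; edgeR adjusted p = 0.00787) in vehicle against WT, a call that held in 6 of 6 fits that left out 1 library. Combined treatment changed it relative to vehicle by -0.87 ± 0.24 (SE; edgeR adjusted p = 0.0327), a call lost without vehicle A1, vehicle A4, combined B24 or combined B26 (adjusted p up to 0.152). Of the 10 small subunit genes, 8 rose in vehicle against WT, where 15.4% of tested genes did, and 1 of these calls (Rrp12) held in every fit that left out 1 library. The others were Rrp9, a protein of the U3 snoRNP, at 0.64 ± 0.24, and Emg1, a methyltransferase, at 0.43 ± 0.18. Nop14, Imp4, Nob1 and Bysl rose, with log2 fold changes of 0.56 to 0.99. The calls of Imp4, Nob1 and Bysl were lost without WT B30 and that of Nop14 without vehicle A1, vehicle A4, WT B28 or WT B30 (edgeR adjusted p up to 0.122). Exons of an antisense gene cover 9.37% of the exons of Bysl (Ccnd3), 7.21% of those of Emg1 (Lpcat3) and 5.28% of those of Nop14, and the strand setting of the counts is not stated. Ccnd3 was at 41.1 to 264 CPM over the 15 libraries, against 34.04 to 125 CPM for Bysl. Lpcat3 was at 83.9 to 153 CPM, against 106 to 285 CPM for Emg1, and the antisense gene at Nop14 at most 0.236 CPM. Exons of Rmnd5b, at 41.2 to 87.02 CPM, cover 3.84% of those of Nhp2. Whether reads of these neighbours add to Bysl, Emg1 or Nhp2 was not tested.

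Nop2, an RNA methyltransferase, and Nop16 led the large subunit genes by level per length. Nop2 was at 145, 132 and 174 CPM in WT, 294, 194 and 293 CPM in vehicle, 454, 267 and 346 CPM with AG221, 217, 355 and 223 CPM with ruxolitinib and 166, 209.8 and 183 CPM with combined treatment. Nop16 was at 78.7, 79.9 and 106 CPM in WT, 160.3, 122 and 162 CPM in vehicle, 259, 172 and 223 CPM with AG221, 112, 166 and 118 CPM with ruxolitinib and 94.2, 126 and 115 CPM with combined treatment. Every vehicle library exceeded every WT library in both. In vehicle against WT, Nop2 changed by 0.79 ± 0.24 (SE; edgeR adjusted p = 0.0239), a call lost without vehicle A1, vehicle A4, WT B28 or WT B30 (adjusted p up to 0.0986). Nop16 changed by 0.75 ± 0.20 (SE; edgeR adjusted p = 0.0162), a call lost without WT B28 or WT B30 (adjusted p up to 0.0740). Rrp1b was at 117, 98.6 and 119 CPM in WT, 205, 184 and 221 CPM in vehicle, 129.8, 214 and 125 CPM with AG221, 151, 165 and 165 CPM with ruxolitinib and 109, 134 and 129.6 CPM with combined treatment. AG221 A9 again stood above A8 and A10. Rrp1b changed by 0.86 ± 0.18 (SE; edgeR adjusted p = 0.00664) in vehicle against WT, a call that held in 6 of 6 fits that left out 1 library. Combined treatment changed it relative to vehicle by -0.71 ± 0.18 (SE; edgeR adjusted p = 0.0227), a call lost without vehicle A1, vehicle A4, combined B24 or combined B25 (adjusted p up to 0.112). Bop1, Pes1 and Wdr12 form the PeBoW complex, which is needed to process the large subunit's RNA, and rose by 0.85 ± 0.24, 0.74 ± 0.18 and 0.52 ± 0.18 (SE) in vehicle against WT. The call of Pes1 was lost without WT B30, that of Bop1 also without vehicle A4, and that of Wdr12 without vehicle A1, vehicle A4, WT B28 or WT B30 (edgeR adjusted p up to 0.150). Ddx18, a helicase, and Wdr74 rose by 0.69 ± 0.21 and 0.70 ± 0.18, lost without WT B30 and, for Ddx18, also without vehicle A1, vehicle A4 or WT B28 (edgeR adjusted p up to 0.109). Gnl3 (nucleostemin) was at 0.40 ± 0.21 there, not called.

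Noc2l (ENSMUSG00000095567, GRCm38 chr4:156236010-156247616, + strand), the counterpart of a yeast factor that moves the large subunit's precursor out of the nucleolus, was the single member that fell in vehicle against WT. It was at 110.4, 165 and 79.5 CPM in WT, 24.4, 38.4 and 57.7 CPM in vehicle, 33.5, 47.1 and 22.95 CPM with AG221, 52.3, 18.7 and 46.0 CPM with ruxolitinib and 247, 270.2 and 105 CPM with combined treatment. The 9 libraries of vehicle, AG221 and ruxolitinib lay below all WT and combined libraries, and combined B24 and B25 lay above every WT library. Noc2l changed by -1.56 ± 0.46 (SE; edgeR adjusted p = 0.0225) on the log2 scale in vehicle against WT, a call lost without vehicle A1, vehicle A3 or WT B30 (adjusted p up to 0.103). Combined treatment changed it relative to vehicle by 2.37 ± 0.47 (SE; edgeR adjusted p = 0.00615), a call that held in 6 of 6 fits that left out 1 library. Exons of the antisense gene Samd11 cover 20.9% of its exons, and Samd11 itself was at most 0.812 CPM in any library.

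With AG221 or ruxolitinib alone, most members were above WT. Both groups carry the letter A and WT carries B, so group and letter cannot be told apart here. In AG221 against WT 27 members rose and 2 (Gar1 and Noc2l) fell, where 22.2% and 28.5% of tested genes did, and the median change was 0.91 against -0.25 for all tested genes. In ruxolitinib against WT 23 rose and 1 (Noc2l) fell, where 16.1% and 16.2% of tested genes did, with medians of 0.58 and -0.14. The AG221 libraries also had the highest mitochondrial shares of the 15 and the highest shares of the 100 most abundant genes, with A8 and A10, which had the highest member medians, above A9 in both. The part of these shares in the result was not tested. The AG221 count stayed at 27 to 29 without any 1 library, with 33.9 to 56.4% of tested genes called. The ruxolitinib count was 4 without WT B30, 9 without ruxolitinib A16, 13 without WT B28 and 10 without AG221 A8, AG221 A10 and ruxolitinib A16 together, where 10.6%, 16.2%, 19.5% and 17.7% of tested genes were called. Ruxolitinib A16, with the highest member median of its group, also had the highest erythroid sum of the 15 libraries, with 1015 CPM against 218 and 189.6 CPM in A14 and A17, and the part of erythroid RNA in the result was not tested. Compared with vehicle, 0 members were called with AG221, where 0.471% of tested genes rose and 0.516% fell. In that comparison edgeR gave 13 members an unadjusted p under 0.05, DESeq2 called 4, and edgeR called 16 (9 higher and 7 lower) without AG221 A9. The shares of all tested genes were 25.2% by unadjusted p, 15.4% by DESeq2 over its own tested genes and 24.4% without AG221 A9. The AG221 medians by role ran from -0.10 for polymerase I to 0.47 for box H/ACA genes. Ruxolitinib against vehicle called 0 members, with 0 at an unadjusted p under 0.05 in edgeR and 0 called by DESeq2, where 0.0% of tested genes rose and 0.0168% fell, and 4.56% had an unadjusted p under 0.05. In AG221 against vehicle the median of all tested genes was -0.0065 and the member median 0.28. The member median ranged from 0.169 without vehicle A3 to 0.392 without AG221 A9. It was 0.0493 without AG221 A8, AG221 A10 and ruxolitinib A16 together. In ruxolitinib against vehicle it was -0.045, against 0.012 over all tested genes. The direction of the member median rested on single libraries, with -0.244 without ruxolitinib A16 but 0.0451 without vehicle A4, 0.0309 without ruxolitinib A14 and 0.0199 without ruxolitinib A17. It was -0.254 without those 3 libraries together. These comparisons share the vehicle libraries.

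**Figure D4:**
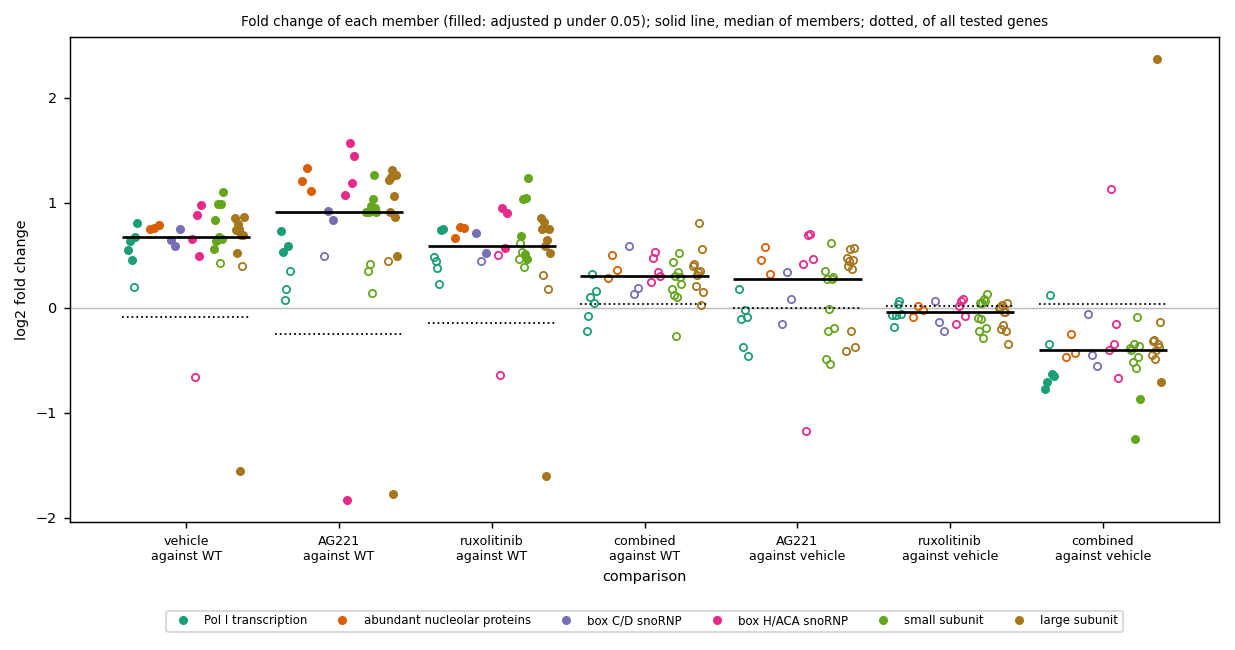
Log2 fold change (vertical axis) of each member in 7 comparisons (horizontal axis), coloured by role, filled where the adjusted p was under 0.05, with the median of the members (solid lines) and of all tested genes (dotted lines). The member median is 0.68 in vehicle against WT, 0.30 in combined treatment against WT and -0.40 in combined treatment against vehicle.

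With combined treatment the members lay closer to WT. In combined treatment against vehicle 7 members fell (Polr1a, Polr1b, Tcof1, Mybbp1a, Utp20, Rrp12 and Rrp1b) and 1 rose (Noc2l), where 4.21% of tested genes fell and 8.28% rose. The member median was -0.40 and that of all tested genes 0.037. Of the 6 polymerase I genes 4 fell, of the 10 small subunit genes 2, and of the 10 large subunit genes 1. Libraries did not overlap for 17 lower and 2 higher members, against 15.2% and 19.5% of tested genes. The count of 8 became 2 without vehicle A1, 3 without combined B24, 4 without vehicle A4 and 14 without AG221 A8, AG221 A10 and ruxolitinib A16 together. In the same fits 5.26%, 5.52%, 9.17% and 15.3% of all tested genes were called. Without vehicle A1 or vehicle A4 the share of the members was thus close to that of all genes. AG221 A8, AG221 A10 and ruxolitinib A16 are in neither group of this comparison, but the spread behind its p-values is pooled over all groups. Because WT and combined treatment share the letter B and vehicle has A, this difference and the letter cannot be told apart.

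Within the letter B, combined treatment against WT called 0 of 37 members in edgeR, with 6 at an unadjusted p under 0.05 and 0 called by DESeq2, where 1.63% of tested genes rose and 1.61% fell by adjusted p, and 25.4% had an unadjusted p under 0.05. DESeq2 called 8.24% of its own tested genes. A fit of those 2 groups alone called 1 member and 10.6% of tested genes. The member median was still positive, 0.30, with 34 members above 0, against a median of 0.038 over all tested genes. In every combined library 8 members were higher and 1 (Polr1a) lower than in every WT library, against 22.3% and 19.3% of tested genes. A p above the threshold does not show that the groups were equal. The 95% interval of Ncl reached from -0.13 to 0.70 on the log2 scale and that of Tcof1 from -0.22 to 0.31.

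Against the single drugs, combined treatment was lower in 26 members and higher in 2 (Gar1 and Noc2l) than AG221, where 14.3% and 18.9% of tested genes were. It was lower in 6 (Polr1a, Tcof1, Mybbp1a, Imp4, Utp20 and Rrp12) and higher in 1 (Noc2l) than ruxolitinib, where 3.94% and 8.5% were. Combined treatment carries the letter B and both single-drug groups carry A, so treatment and letter cannot be told apart here. The member medians were -0.71 and -0.30, against 0.11 and 0.014 over all tested genes. The second member median was -0.149 without ruxolitinib A16 and -0.143 without AG221 A8, AG221 A10 and ruxolitinib A16 together. Without those 3 libraries the counts were 0 and 4, AG221 then being 1 library that is assumed to vary like the others, and without combined B24 they were 18 and 3. The shares of tested genes were 0.481% and 8.33% in the first of these fits and 17.3% and 5.99% in the second. The ruxolitinib count was 3 without A16, with 6.88% of tested genes called, and 4 without either B25 or B26, with 6.55% and 9.92%. The log2 change with both drugs, less the sum of the changes with each drug alone, differed from 0 for 5 members, Nhp2, Nop10, Imp4 and Utp20 below and Noc2l above that sum, where 2.82% and 5.6% of tested genes were. The median of this difference was -0.65 in the members and 0.069 in all tested genes, and -0.279 in the members without AG221 A8, AG221 A10 and ruxolitinib A16 together, where edgeR called 0 members. Upper quartile scaling put 18 members below and 1 above the sum, DESeq2 14 and 2, a filter of at least 10 counts in every library 15 and 1, and a fit of the 4 groups alone 0 in all. The shares of tested genes called were 17.5%, 22.9%, 19.5% and 1.03% in these fits. The count of 5 was 21 without AG221 A9, where 31.8% of all tested genes were called, and 0 without AG221 A8, AG221 A10, ruxolitinib A16, ruxolitinib A17, vehicle A3, vehicle A4, combined B24 or combined B25, with 0.230 to 1.14% of tested genes called, and 2 without combined B26, with 7.63%.

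Other genes of the pathway were listed by role, and 111 of 113 were tested. In vehicle against WT 63 rose by edgeR, 6 of them in every fit that left out 1 library, where 15.4% of all tested genes rose, and the median was 0.58. Those with the smallest p were Pelp1, a large subunit factor, at 0.94 ± 0.19 (SE; edgeR adjusted p = 0.00519), a call that held in 6 of 6 fits that left out 1 library, and Exosc5, a subunit of the RNA exosome, at 0.64 ± 0.14 (SE; edgeR adjusted p = 0.00627), a call that held in 6 of 6 fits that left out 1 library. The third was Tbl3, a processome protein, at 0.85 ± 0.19 (SE; edgeR adjusted p = 0.00772), a call that held in 6 of 6 fits that left out 1 library. Antisense exons cover 37.3% of Tbl3 and 5.66% of Exosc5. Of those below WT, Rrs1, Imp3 and Dis3 had the smallest p and were at -1.18, -0.88 and -0.86, not called. In combined treatment against vehicle 7 of 111 fell and 4 rose, where 4.21% and 8.28% of all tested genes did, with a median of -0.31. Pelp1 changed by -0.90 ± 0.19 (SE; edgeR adjusted p = 0.00790), a call that held in 6 of 6 fits that left out 1 library. Heatr1 and Mdn1 changed by -0.997 ± 0.25 (SE; edgeR adjusted p = 0.0200) and -0.66 ± 0.17 (SE; edgeR adjusted p = 0.0238), the first a call lost without vehicle A1, vehicle A4, combined B24 or combined B25 (adjusted p up to 0.0985) and the second a call lost without vehicle A1, vehicle A4, combined B24 or combined B25 (adjusted p up to 0.123). Those that rose included Rrs1, an assembly factor of the large subunit, at 2.39 ± 0.49 (SE; edgeR adjusted p = 0.00726), a call that held in 6 of 6 fits that left out 1 library. Nol9, a polynucleotide kinase, was at 1.42 ± 0.28 (SE; edgeR adjusted p = 0.00569), a call that held in 6 of 6 fits that left out 1 library, and Imp3, a U3 snoRNP protein, at 1.37 ± 0.36 (SE; edgeR adjusted p = 0.0245), a call lost without vehicle A1, vehicle A3, combined B24 or combined B25 (adjusted p up to 0.115). Rrs1 was at 23.5, 40.5 and 21.6 CPM in WT, 8.05, 10.4 and 19.5 CPM in vehicle and 76.9, 88.99 and 31.9 CPM with combined treatment. As for Noc2l, every vehicle library was below every WT and combined library.

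Combined treatment against WT called 1 of the 111, where 1.63% of tested genes rose. AG221 and ruxolitinib against vehicle called 0 each by edgeR, with 40 and 0 at an unadjusted p under 0.05 and 10 and 0 called by DESeq2, where 25.2% and 4.56% of all tested genes had an unadjusted p under 0.05 and DESeq2 called 15.4% and 0.264% of its own. Myc itself was at 693, 509.9 and 739.6 CPM in WT, 838, 861 and 964 CPM in vehicle, 312, 896 and 413 CPM with AG221, 874, 602 and 716 CPM with ruxolitinib and 892, 1049.8 and 1007 CPM with combined treatment. AG221 A8 and A10 had the lowest Myc of the 15 libraries, and combined B25 and B26 had the highest. Of the 37 members, 25 were higher in A8 than in A9 and 12 were lower. For A10 compared with A9 these numbers were 26 and 11. The relation of Myc to the members was not tested. The log2 fold change of Myc was 0.45 ± 0.30 (SE; edgeR adjusted p = 0.246) in vehicle against WT and 0.15 ± 0.30 (SE; edgeR adjusted p = 0.807) in combined treatment against vehicle.

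Marker and sample-check lists are given beside the members, and their part in the changes was not tested. Their counts stand against the shares of all tested genes, where 15.4% rose and 17.9% fell in vehicle against WT, and 8.28% rose and 4.21% fell in combined treatment against vehicle. A list is said to be led by the gene with the highest mean CPM over the 15 libraries. In lists this short, a count of 1 gene says little against these shares. The immediate early genes, which respond to handling and signals within minutes, summed to 834, 801 and 587 CPM in WT, 5131, 11281 and 5179 CPM in vehicle, 2149, 3836 and 2719 CPM with AG221, 6963, 2695 and 6099 CPM with ruxolitinib and 1023, 675 and 532 CPM with combined treatment. Fos led the list, and of 10 tested genes 8 rose in vehicle against WT, and 7 fell in combined treatment against vehicle. Proliferation genes, led by Top2a, summed to 3171, 2658 and 3205 CPM in WT, 4868, 3870.3 and 5006 CPM in vehicle, 5831, 4607 and 4910.3 CPM with AG221, 4609.6, 5854 and 4786 CPM with ruxolitinib and 3827, 4824 and 4436 CPM with combined treatment. By the same test, of 10 tested genes 8 rose in vehicle against WT, and 1 rose in combined treatment against vehicle. Heat shock genes, led by Hsp90aa1, summed to 774, 685 and 858 CPM in WT, 1215, 1155 and 1540.4 CPM in vehicle, 1544, 1198 and 1211 CPM with AG221, 1099.7, 1269.5 and 1129.7 CPM with ruxolitinib and 739.6, 968 and 871 CPM with combined treatment, and of 5 tested genes 1 rose in vehicle against WT, and 2 fell in combined treatment against vehicle. For Y-linked genes with Xist, of 5 tested genes 4 rose and 1 fell in vehicle against WT.

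Neutrophil genes, led by Mpo, summed to 3088, 3290.5 and 2929 CPM in WT, 6609.6, 11212 and 8143 CPM in vehicle, 17640.1, 15644 and 14755 CPM with AG221, 17017, 10748 and 12469 CPM with ruxolitinib and 3569.9, 4556 and 6299.8 CPM with combined treatment. By the same test, of 7 tested genes 2 rose in vehicle against WT, and 1 fell in combined treatment against vehicle. Nearly all of this sum is Mpo and Elane, which were at 12390 and 4822 CPM in AG221 A8. The rest of the list (Ltf, S100a8, S100a9, Camp and Ngp) were each at most 187 CPM in any library, so the sum follows Mpo and Elane. B and plasma cell genes, led by Ighm, summed to 5399, 11120.5 and 3588 CPM in WT and to at most 803 CPM in any other library, and of 9 tested genes 5 fell in vehicle against WT. Mast and basophil genes, led by Cpa3, summed to 102, 55.7 and 82.4 CPM in WT, 504, 453 and 971 CPM in vehicle, 507, 603 and 612 CPM with AG221, 239, 299 and 250.4 CPM with ruxolitinib and 232, 299 and 402 CPM with combined treatment, and of 5 tested genes 5 rose in vehicle against WT, and 2 fell in combined treatment against vehicle. Megakaryocyte genes, led by Itga2b, summed to 257, 199 and 225 CPM in WT, 784, 772 and 731 CPM in vehicle, 291, 521 and 409.7 CPM with AG221, 579.7, 633 and 576 CPM with ruxolitinib and 626, 841 and 436 CPM with combined treatment, and of 5 tested genes 2 rose in vehicle against WT, and 1 rose in combined treatment against vehicle. Stem and progenitor genes, led by Kit, summed to 4805, 4367 and 4343 CPM in WT, 3412, 3855 and 2437 CPM in vehicle, 2385, 2446 and 2601 CPM with AG221, 2924, 3039 and 3452 CPM with ruxolitinib and 3860.0, 3141 and 3294 CPM with combined treatment, and of 10 tested genes 3 fell in vehicle against WT. Erythroid genes, led by Hbb-bs, summed to 62.8, 85.03 and 94.6 CPM in WT, 170.3, 177 and 330.2 CPM in vehicle, 122, 290.3 and 137 CPM with AG221, 218, 1015 and 189.6 CPM with ruxolitinib and 138, 277 and 174 CPM with combined treatment, and of 6 tested genes 2 rose in vehicle against WT, and 1 fell in combined treatment against vehicle. Hbb-bs alone was at 55.4, 609 and 53.2 CPM in ruxolitinib A14, A16 and A17, and A16 gives it the lead. In 9 libraries, among them all of WT and combined treatment, Klf1 was above Hbb-bs, at 28.1, 35.9 and 38.7 CPM in WT and 70.1, 171 and 95.8 CPM with combined treatment. T and NK genes, led by Nkg7, summed to 162, 156 and 222 CPM in WT, 457, 409.6 and 419.6 CPM in vehicle, 763, 599 and 684 CPM with AG221, 512, 426 and 531 CPM with ruxolitinib and 365, 404 and 391 CPM with combined treatment, and of 5 tested genes 1 rose in vehicle against WT. Nearly all of this sum is Nkg7, and the other 5 genes of the list (Cd3e, Cd3d, Cd3g, Klrb1c and Ncr1) were each at most 4.26 CPM in any library, so the sum follows 1 gene. Monocyte and dendritic genes, led by Lyz2, summed to 345, 343 and 389 CPM in WT, 589, 393 and 445 CPM in vehicle, 739, 606 and 827 CPM with AG221, 784, 432 and 559.9 CPM with ruxolitinib and 348, 369 and 484 CPM with combined treatment, and of 6 tested genes 3 rose in vehicle against WT. No gene of these lists was at 0 in every library.

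**Figure D5:**
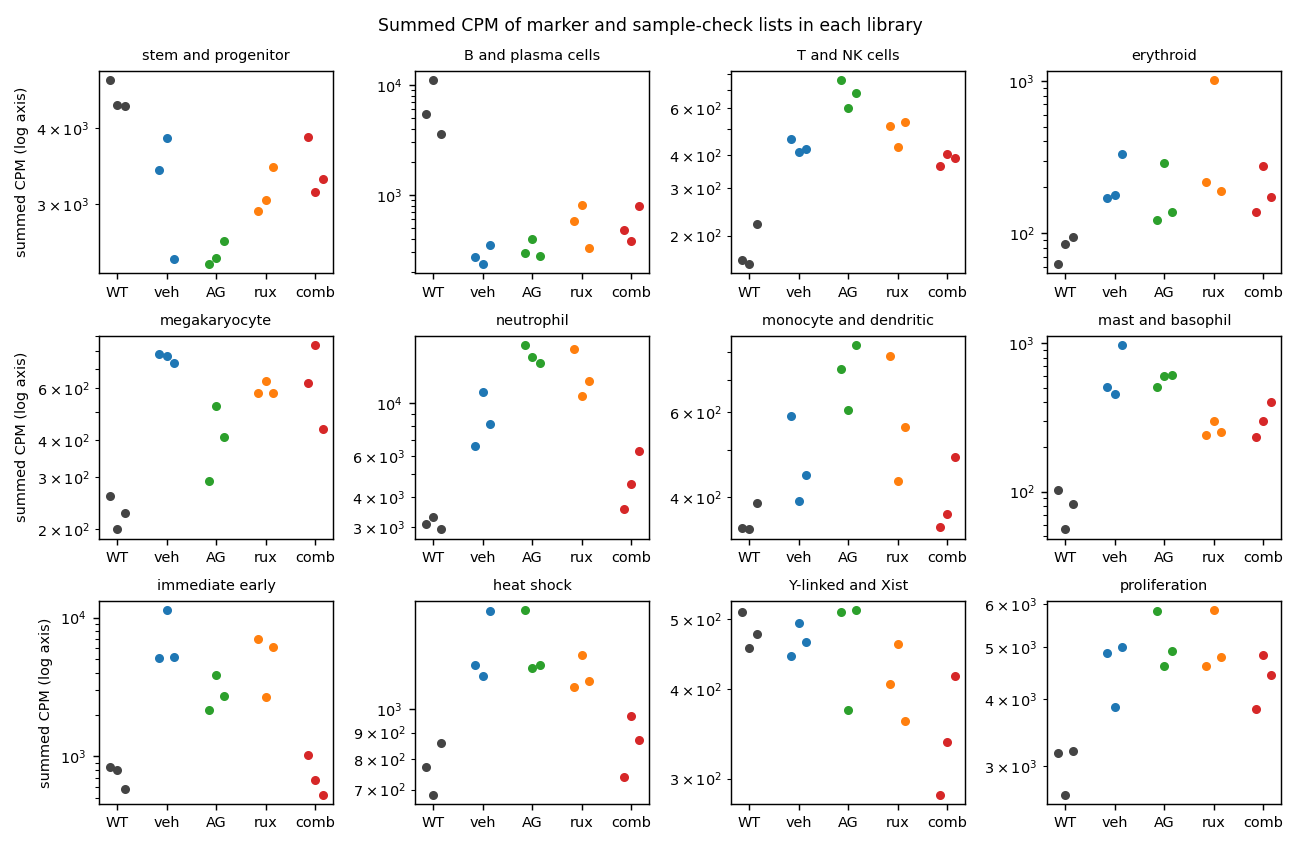
Summed CPM (vertical axes, log scale) of the 8 marker lists and 4 sample-check lists in each library (points) of WT, vehicle (veh), AG221 (AG), ruxolitinib (rux) and combined treatment (comb). Immediate early genes are low in WT and combined treatment and high in the other 3 groups, and B and plasma cell genes are high in WT.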

How the data were processed

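RNA of sorted CD45.2+ LSK cells was amplified with SMARTer chemistry and sequenced in pairs. The authors mapped reads with STAR 2.5.1a to GRCm38 and counted reads per gene with STAR's own mode, and these raw counts were used as deposited, while the deposited table divided by size factors was not used. The strand setting and the annotation release are not given. Counts of the 15 libraries were fitted in 1 model of 5 groups with edgeR 4.0.16 in R 4.3.3 (quasi-likelihood test, TMM scaling, filterByExpr), with adjusted p-values (Benjamini-Hochberg) over the 17834 tested genes and a threshold of 0.05. Log2 CPM per library used a prior count of 2. DESeq2 1.42.0 was used for alternatives (limma 3.58.1 was loaded by edgeR), and Python 3.11.15 with pandas 2.3.3, numpy 2.4.6 and matplotlib 3.10.9 for tables and figures. Alternatives were DESeq2, RLE and upper quartile scaling, 2 other filters, GC offsets, fits of only the groups compared, each library left out in turn, and a fit without 3 libraries. Members and lists were chosen with earlier results of these data known. Values in every library were given for the 2 members of each role with the highest level per length, the 5 with the smallest p in vehicle against WT and in combined treatment against vehicle, and those with the lowest and highest fold change in each. Of other pathway genes, the 3 with the smallest p in each direction were named. Of each marker list, the most abundant gene was named. Totals were 18836625 to 32174287 counts, and the common biological coefficient of variation was 0.313.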

Additional observations from a re-analysis of the deposited data

Results flagged for a closer look

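The change with both drugs differed from the sum of the changes with AG221 alone and ruxolitinib alone for 5 members, by a test of that difference itself over the 12 libraries from recipients, with the spread of all 15. Over all tested genes 2.82% were below and 5.6% above that sum, or 8.42% in all. Combined treatment carries the letter B and vehicle, AG221 and ruxolitinib carry A, so this difference and the letter cannot be told apart. On the log2 scale the difference was -1.10 ± 0.29 (SE; edgeR adjusted p = 0.0426) for Nhp2 and -0.94 ± 0.25 (SE; edgeR adjusted p = 0.0424) for Nop10, both of the box H/ACA snoRNPs. It was -0.84 ± 0.24 (SE; edgeR adjusted p = 0.0482) for Imp4 and -1.28 ± 0.36 (SE; edgeR adjusted p = 0.0474) for Utp20, both of the small subunit, and 2.63 ± 0.65 (SE; edgeR adjusted p = 0.0378) for Noc2l. Each call was lost in at least 8 of the 12 fits that left out 1 library, with an adjusted p of up to 0.127 by edgeR. Fitted with only the 4 groups compared, edgeR called 0 members and 1.03% of tested genes. With all groups, 23 members and 32% of tested genes had an unadjusted p under 0.05 by edgeR. DESeq2 called 16 members and 22.9% of its own tested genes.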

How the results depend on the processing

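With all libraries kept, the direction of the members' median held under every scaling, filter and test tried. With upper quartile scaling 17 members were called in vehicle against WT, 2 in AG221 against vehicle and 19 in the difference from the sum of single-drug changes, where 27.4%, 4.14% and 17.5% of all tested genes were called. The member medians then were -1.02 in combined treatment against AG221 and -0.997 in that difference, and the medians of all tested genes turned to -0.183 and -0.245. With offsets for GC content the member median was 1.18 in AG221 against WT, and the median of all tested genes changed sign in every comparison but combined treatment against WT. It became 0.0957 in vehicle, 0.0385 in AG221 and 0.0332 in ruxolitinib against WT. DESeq2, over its own tested genes, put it at -0.442 in vehicle against WT. With all genes of at least 1 count the all-gene median was -1.01 in vehicle, -1.08 in AG221, -0.901 in ruxolitinib and -0.56 in combined treatment against WT. DESeq2 called 4 members in AG221 against vehicle and 16 in the difference from the sum, and at least 10 counts in every library gave 4 and 16. The shares of all tested genes were 15.4% and 22.9%, and 7.12% and 19.5%. A fit of only the groups compared called 1 in combined treatment against WT and 0 in the difference from the sum, with 10.6% and 1.03% of tested genes. The cause was not tested.

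Without AG221 A8, AG221 A10 and ruxolitinib A16, an alternative chosen after seeing the data, 10 members were called in ruxolitinib against WT, 14 in combined treatment against vehicle, 0 against AG221 and 4 against ruxolitinib, and 0 in the difference from the sum. The shares of all tested genes were 17.7%, 15.3%, 0.481%, 8.33% and 0.106%. The member medians were 0.0493 in AG221 against vehicle, -0.254 in ruxolitinib against vehicle and -0.279 in that difference. AG221 was then 1 library, assumed to vary like the others.

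Leaving out 1 library at a time, the members called numbered 4 to 33 in vehicle, 27 to 29 in AG221, 4 to 28 in ruxolitinib and 0 throughout in combined treatment against WT. The counts were 0 to 16 in AG221, 0 throughout in ruxolitinib and 2 to 10 in combined treatment against vehicle, 18 to 28 in combined treatment against AG221 and 3 to 7 against ruxolitinib, and 0 to 21 in the difference from the sum. All tested genes moved too, with 10.5 to 30.9% called in vehicle, 33.9 to 56.4% in AG221 and 0.46 to 2.22% in combined treatment against WT. Against vehicle, 0 to 24.4% were called in AG221 and 5.26 to 10.3% in combined treatment. The shares were 15.7 to 42.6% in combined treatment against AG221, 5.99 to 9.92% against ruxolitinib and up to 31.8% in the difference from the sum. In ruxolitinib, 1910 to 5074 genes were called against WT and 0 to 9 against vehicle. The member median in ruxolitinib against vehicle turned positive in 3 of 6 fits, to 0.0451 without vehicle A4, and in combined treatment against ruxolitinib it was -0.149 without ruxolitinib A16. Of the changes of single genes under other settings, 1086 kept their side of the threshold, 130 lost it and 24 gained it. Without 1 library these numbers were 697, 256 and 7. The methods state that recipients were matched on hematocrit, leukocyte count, donor chimerism and body weight, and randomized inside the matched sets. The labels do not give these sets, and the groups share no replicate numbers, so no paired analysis was possible. With 3 libraries a group, sex cannot be told apart from genotype against WT, nor the library letter from the groups where the letters differ, while depth does not limit the members.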
